A study of Mus musculus with 23 samples.

Results

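Reg1, Reg3a, Reg3b, Reg3g, Retnlb, Saa1, Saa2, Duox2, Duoxa2 and Nos2 are epithelial defence genes of the gut that are known to respond to microbes. These 10 genes were taken by symbol, mapped to the Ensembl identifiers of the count tables, out of 55416 gene rows. They comprise secreted lectins of the Reg family, serum amyloid A proteins, a goblet cell protein, and enzymes that make reactive oxygen or nitric oxide. Read counts were obtained by RNA-seq from 23 mice of the strain C57BL/6JRccHsd, all with the sex label female, and the RNA was of scraped proximal small intestine. From 21 days of age, 12 mice were fed galactose and glucose at 16% of energy each, and 11 mice were fed glucose at 32% of energy. All mice were 42 days old when tissue was taken, so both groups ate glucose and differed in whether galactose replaced part of it. The mice had been stratified by body weight before they were divided between the diets. The comparison asks whether the defence genes differ between the diets and how they vary from mouse to mouse.

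In the small intestine, contact of bacteria with the epithelium is known to induce the C-type lectins Reg3b and Reg3g, which kill or hold off bacteria close to the surface. Toll-like receptor signals and interleukin 22, a cytokine of innate and T lymphocytes that acts through the receptor Il22ra1 and the transcription factor Stat3, are the best known inducers. Duox2, an oxidase of the apical membrane, releases hydrogen peroxide and needs its maturation factor Duoxa2, while Nos2 is the inducible nitric oxide synthase. Saa1 and Saa2 are acute phase proteins that gut epithelium also makes, and Retnlb is a goblet cell protein that damages bacterial membranes. No measurement of microbes entered the data described here.

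Reg3b and Reg3g were the genes that moved most closely together between mice, whereas Reg3a, which lies between them on chromosome 6, had a negative correlation with Reg3g that did not pass the test. For that reason the 250 bases before the annotated start are shown for these 3 genes and for Reg1. They come from the RefSeq annotation of GRCm38.p6 and are printed 5′ to 3′ on the strand of each gene. The capitals mark TATAAA, searched on the strand of the gene, and TTCNNNGAA, the core of the motif of STAT factors, searched on both strands, and these motifs share no bases here. Reg3b lies at chr6:78370635-78370884 on the plus strand, Reg3a at chr6:78380459-78380708 on the plus strand, Reg3g at chr6:78468875-78469124 on the minus strand and Reg1 at chr6:78425733-78425982 on the plus strand.
Reg3b: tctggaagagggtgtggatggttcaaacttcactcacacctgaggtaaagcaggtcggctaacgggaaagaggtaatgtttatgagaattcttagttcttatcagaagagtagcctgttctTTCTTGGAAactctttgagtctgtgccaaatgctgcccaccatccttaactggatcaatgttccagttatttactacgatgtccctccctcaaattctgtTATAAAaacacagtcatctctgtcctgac
Reg3g: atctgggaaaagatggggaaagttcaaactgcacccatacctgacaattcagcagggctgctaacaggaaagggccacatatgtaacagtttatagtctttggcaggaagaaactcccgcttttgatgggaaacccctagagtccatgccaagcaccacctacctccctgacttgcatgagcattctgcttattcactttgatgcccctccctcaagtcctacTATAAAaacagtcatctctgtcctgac
Reg3a: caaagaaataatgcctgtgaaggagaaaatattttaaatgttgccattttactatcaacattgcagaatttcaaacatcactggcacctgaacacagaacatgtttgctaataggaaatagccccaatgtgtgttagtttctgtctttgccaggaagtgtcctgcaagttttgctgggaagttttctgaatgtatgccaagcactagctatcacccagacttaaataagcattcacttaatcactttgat
Reg1: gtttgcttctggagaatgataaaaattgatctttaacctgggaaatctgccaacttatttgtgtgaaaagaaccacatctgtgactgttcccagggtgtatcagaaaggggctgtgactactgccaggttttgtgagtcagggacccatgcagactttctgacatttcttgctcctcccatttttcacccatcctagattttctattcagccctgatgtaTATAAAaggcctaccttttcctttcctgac

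Reg3b and Reg3g matched at 68.9% of aligned bases before their starts, with a longest shared run of 20 bases. Reg3a matched Reg3g at 50.5%, with a longest run of 11 bases, and Reg3b at 47.9%, with a longest run of 7 bases. Unrelated promoters of the set aligned at similar identity to the latter, for example Reg1 with Saa1 at 47.9%. TATAAA stood at -29 in Reg3b, -27 in Reg3g and -30 in Reg1, counted from the start to the first base of the motif, and Reg3a had no match. TATAAA also stood at -30 in Duoxa2. Among 32851 windows of the same length before mouse gene starts, 7.59% held TATAAA on the gene strand. TTCNNNGAA matched once among the members, as TTCTTGGAA at -129 in Reg3b, and 7.02% of all windows held it on either strand. A consensus of NF-kB on either strand, which 7.25% of windows held, matched in Reg3g alone of the members, as GGGAAACCCC at -123. A match is a description of letters and not evidence of binding. Promoter windows were found for 8 of the 10 genes, and those of Retnlb and Nos2 are not shown. The starts of Duox2 and Duoxa2, which are read from opposite strands of chromosome 2, were 673 bases apart. Their windows matched at 49.8% of aligned bases, with a longest shared run of 8 bases. This pair also varied together between mice (r = 0.673). Whether likeness of promoters goes with co-variation was not tested. The starts of Saa1 and Saa2 on chromosome 7 were 8853 bases apart, and their windows matched at 94.8% of aligned bases.

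Libraries held 15382583 to 17174721 counts in genes. Levels are CPM, counts divided by a common measure of library size, after scaling by TMM, a normalization that allows for differences in composition. Markers of proximal small intestine were present, with 6.81 ± 5.01 CPM (SD, n = 12) of the duodenal transcription factor Pdx1 on galactose and 5.78 ± 3.16 CPM (SD, n = 11) on glucose. Fabp6, the bile acid binding protein of the ileum, had 64 counts over all libraries. Galactose replicate 2 stood apart by transcripts of pancreatic acinar cells, with a summed level of 863 CPM over the 17 acinar markers. The median on galactose was 37.3 CPM and the highest glucose library had 66.4 CPM. The amylase gene Amy2a5 was at 0 counts in all libraries, and 3 of the 17 acinar markers were abundant enough to be tested. Reads without a unique alignment were counted for no gene, and whether Amy2a5 lost reads in that way was not tested. Galactose replicate 12 had 225 counts of 4 Y-linked genes and 4 counts of Xist, although it is labelled female. All other libraries had at most 1 Y-linked count and at least 778 counts of Xist. Each library is labelled as a separate mouse, and the tests take mice as replicates.

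The 10 genes spanned several orders of magnitude in level. Per kilobase of transcript, the lectins stood highest, with 739 ± 867 CPM per kilobase (SD, n = 23) for Reg3b, 583 ± 235 for Reg1, 336 ± 394 for Reg3g and 239 ± 50.4 for Reg3a. All mice had more Reg3a than Duox2, whose level was 0.715 ± 0.708 CPM per kilobase, followed by Duoxa2 at 0.532 ± 0.608 and Nos2 at 0.152 ± 0.123. Saa1 at 0.0696 CPM per kilobase, Retnlb at 0.0149 and Saa2 at 0.00415 came last. Neighbours in this order did not differ beyond the spread between mice in several cases. Reg3b was above Reg1 in 10 of 23 mice, Reg3g above Reg3a in 9 of 23 and Duox2 above Duoxa2 in 11 of 23. Reg1 was above Reg3g in 18 of 23 mice, Duoxa2 above Nos2 in 21 of 23 and Nos2 above Saa1 in 19 of 23. Scrapings hold many cell types, so fewer cells of a type and less RNA per cell cannot be told apart.

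**Figure D1:**
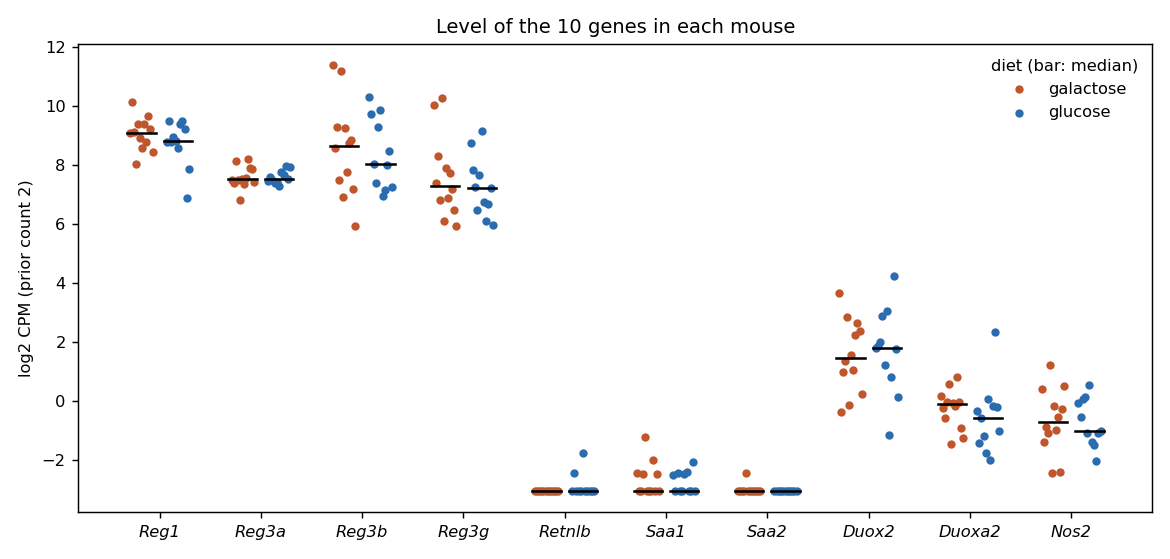
Level of each gene in each mouse, as log2 CPM with a prior count of 2 on the vertical axis, with galactose mice in orange, glucose mice in blue and a bar at the median of each diet. The diets overlap for every gene, Reg3b and Reg3g reach 2657 and 1221 CPM in the highest galactose mouse, and Retnlb, Saa1 and Saa2 lie at or close to the level of 0 counts.

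No member passed the test between the diets. By edgeR's quasi-likelihood test with Benjamini-Hochberg adjustment over all genes, 0 of the 6 members with enough counts to be tested were called, against 0 of 13405 genes in all (0%). Unadjusted p-values under 0.05 were found for 0 of the 6 members and for 14.4% of all tested genes. limma-voom called 0 genes (0%), its fit with sample quality weights 167 (1.25%) and DESeq2 132 (0.985%), and none of the 3 called a member. DESeq2 gave no adjusted p for Duox2 and Duoxa2. The log2 difference, galactose minus glucose, was above 0 for 4 members and below 0 for 2, with a median of 0.14. That split depended on the fit, since Duoxa2 was above 0 with limma-voom (0.38) and Reg3b below 0 with quality weights (-0.13). Over all tested genes 49.5% lay above 0, with a median of -0.00174. Retnlb, Saa1, Saa2 and Nos2 had too few counts for the test. Without galactose replicates 2 and 12 edgeR again called no gene (0%), and the differences were 0.17 for Reg1, 0.08 for Reg3a, 0.74 for Reg3b, 0.87 for Reg3g, -0.11 for Duox2 and -0.06 for Duoxa2.

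Reg3b (ENSMUSG00000071356) had a higher mean on galactose, carried by 2 mice. The galactose mice ranged from 60.3 to 2657 CPM with a median of 403 CPM, and the glucose mice from 122 to 1254 CPM with a median of 259 CPM. Galactose replicates 1 and 5 stood at 2657 and 2344 CPM, well above the third galactose mouse at 619 CPM. On glucose, replicates 1, 6 and 2 were highest at 1254, 935 and 840 CPM, so the levels formed a gradient there. The lowest of all 23 mice was galactose replicate 12, and below the 2 highest galactose mice the groups overlapped. Mean levels were 684 ± 871 CPM (SD, n = 12) on galactose and 464 ± 389 CPM (SD, n = 11) on glucose. The log2 difference of 0.56 ± 0.54 (SE) did not pass edgeR's test (adjusted p = 0.667). Replicates 1 and 5 held 60.9% of the summed Reg3b level of the 12 galactose mice. Without galactose replicate 1 the difference was 0.12, and without replicate 5 it was 0.20. On the scale of mean log2 CPM, where single high mice weigh less, it was 0.15 ± 0.53 (SE, limma-trend, adjusted p = 0.927).

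Reg3g (ENSMUSG00000030017) showed the same arrangement of mice. Galactose mice ranged from 60.6 to 1221 CPM with a median of 156 CPM, and glucose mice from 63.0 to 561 CPM with a median of 148 CPM. The medians were thus close, while galactose replicates 5 and 1, at 1221 and 1052 CPM, exceeded the highest glucose mouse, replicate 6. The third galactose mouse was at 314 CPM and lay among the glucose mice. Means were 316 ± 392 CPM (SD, n = 12) and 196 ± 160 CPM (SD, n = 11), a log2 difference of 0.69 ± 0.49 (SE) that did not pass edgeR's test (p = 0.168, adjusted p = 0.530). It was 0.26 without galactose replicate 5 and 0.35 without replicate 1, and 6 of 12 galactose mice lay above the glucose median. With the score of distal small intestine markers held in the fit it was 0.96 ± 0.45 (SE, adjusted p = 0.381 by edgeR). With the slope of each library on transcript length held it was 0.46. That slope was -0.029 ± 0.055 (SD, n = 12) on galactose and 0.031 ± 0.045 (SD, n = 11) on glucose. Slope and diet thus went partly together, and the fit cannot fully tell them apart. The Reg3g difference was 0.33 with limma-voom, 0.32 with limma-trend and 0.09 with quality weights.

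Reg3a (ENSMUSG00000079516), a lectin of the same cluster, varied least between mice of the 6 tested members. Galactose mice ranged from 114 to 291 CPM with a median of 184 CPM, and glucose mice from 157 to 250 CPM with a median of 182 CPM. The galactose range enclosed the glucose range, and galactose replicate 5, the second highest mouse for Reg3b, was the lowest mouse for Reg3a. Means were 200 ± 50.9 CPM (SD, n = 12) and 195 ± 30.8 CPM (SD, n = 11), and the log2 difference was 0.04 ± 0.12 (SE, adjusted p = 0.918 by edgeR). Its sign turned without galactose replicate 3 (-0.021) or replicate 9 (-0.026).

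Reg1 (ENSMUSG00000059654) is a secreted lectin-like protein known from pancreatic acinar cells and from the upper gut. It ranged from 260 to 1112 CPM on galactose, with a median of 547 CPM, and from 119 to 720 CPM on glucose, with a median of 452 CPM. The highest mouse was galactose replicate 2, the library rich in acinar transcripts, and the lowest was glucose replicate 10. Means were 571 ± 229 CPM (SD, n = 12) and 479 ± 193 CPM (SD, n = 11), and 8 of 12 galactose mice lay above the glucose median. The log2 difference of 0.25 ± 0.23 (SE) did not pass edgeR's test (adjusted p = 0.648). Without galactose replicate 2 it was 0.12 ± 0.22, and with the acinar score held in the fit it was 0.11 ± 0.22 (SE).

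Duox2 (ENSMUSG00000068452) and Duoxa2 (ENSMUSG00000027225) were both highest in 1 glucose mouse. Duox2 ranged from 0.656 to 12.6 CPM on galactose, with a median of 2.64 CPM, and from 0.325 to 18.9 CPM on glucose, with a median of 3.34 CPM. Duoxa2 ranged from 0.244 to 1.66 CPM on galactose, with a median of 0.804 CPM, and from 0.130 to 4.94 CPM on glucose, with a median of 0.551 CPM. Glucose replicate 9 was the highest mouse for both, with 303 counts of Duox2 and 79 counts of Duoxa2. That mouse held 50.1% of the summed Duoxa2 level of the 11 glucose mice. The log2 difference was -0.32 ± 0.49 (SE, adjusted p = 0.8004) for Duox2 and -0.17 ± 0.46 (SE, adjusted p = 0.898) for Duoxa2 by edgeR. Without glucose replicate 9 both signs turned, to 0.17 ± 0.45 for Duox2 and to 0.67 ± 0.33 for Duoxa2 (SE, adjusted p = 0.883 and 0.305 by edgeR). The Duoxa2 sign also turned with limma-voom (0.38), quality weights (0.41) and limma-trend (0.30). Without galactose replicate 1, the highest galactose mouse, the Duox2 difference was -0.64. Of 100-base stretches of Duox2 transcripts, 1.88% also occur in Duox1, which had 25 counts over all libraries.

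Nos2 (ENSMUSG00000020826) had 241 counts in all and was detected in 23 of 23 mice. It ranged from 0.0610 to 2.24 CPM on galactose, with a median of 0.499 CPM, and from 0.125 to 1.35 CPM on glucose, with a median of 0.372 CPM. Galactose replicate 5 and glucose replicate 6 were the highest mice of their diets, as they were for Reg3g. A fit with no filter on low counts gave a log2 difference of 0.26 ± 0.42 (SE, adjusted p = 0.801 by edgeR).

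The serum amyloid genes and Retnlb were barely detected. Saa1 (ENSMUSG00000074115) had 10 counts over 5 galactose mice, 5 of them in replicate 5, and 6 counts over 5 glucose mice. Saa2 (ENSMUSG00000057465) had 1 count, in galactose replicate 5. Of 100-base stretches, 8.96% of those of Saa1 occur in Saa2. Reads from such stretches can lack a unique alignment, and reads without one were counted for no gene. Retnlb (ENSMUSG00000022650) had 3 counts in glucose replicate 6, 1 count in glucose replicate 2 and 0 counts in the 12 galactose mice. A count of 0 over the galactose group allows a level of up to 0.0154 CPM (3 counts), for counting error only. The mean on glucose was 0.0216 CPM. A fit with no filter on low counts gave a log2 difference of -1.95 ± 0.75 (SE, p = 0.0161, adjusted p = 0.327 by edgeR), a value that depends on the prior count because galactose was at 0.

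**Figure D2:**
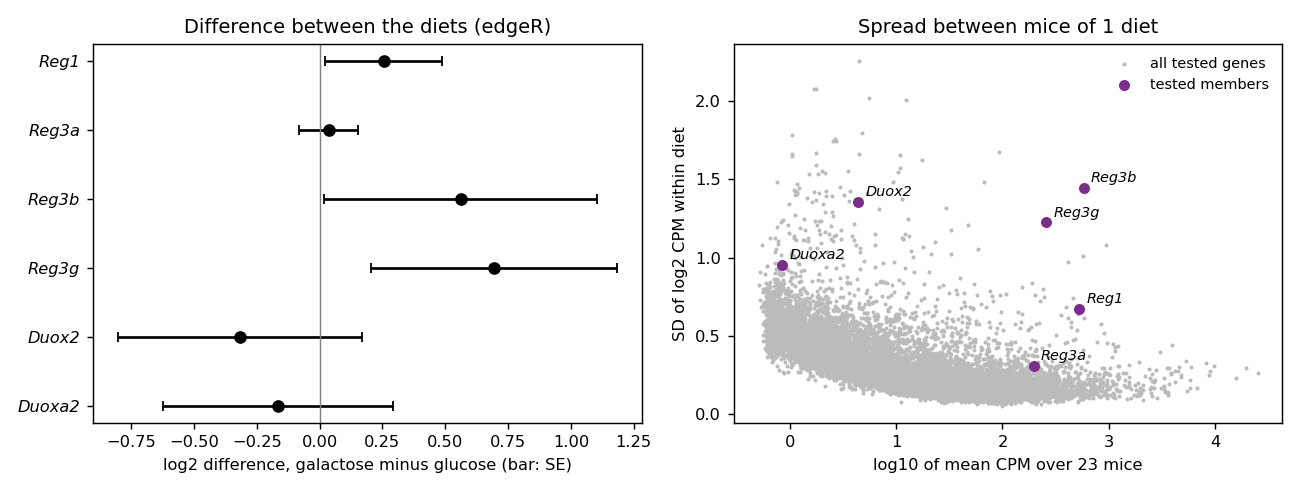
Left, the log2 difference between diets, galactose minus glucose, for the 6 tested members, with bars of 1 SE from edgeR. Right, the SD of log2 CPM between mice of 1 diet against the log10 of mean CPM for all 13405 tested genes in grey and the members in purple, where Reg3b (SD 1.45) and Reg3g (SD 1.23) lie far above genes of like abundance and Reg3a (SD 0.31) lies lowest of the members.

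The spread between mice of 1 diet was wide for 5 of the 6 tested members. On the log2 scale the SD within diets was 1.45 for Reg3b, 1.36 for Duox2, 1.23 for Reg3g, 0.95 for Duoxa2, 0.67 for Reg1 and 0.31 for Reg3a. The median SD over all tested genes was 0.24. These values lay at the percentile 99.8 of all tested genes for Reg3b, 99.6 for Duox2, 99.5 for Reg3g, 98.9 for Duoxa2, 96.0 for Reg1 and 63.8 for Reg3a. Counting noise adds to the SD of low genes such as Duoxa2. Among the 7728 genes with a mean of at least 10 CPM, the percentiles were 99.9 for Reg3b and for Reg3g, 99.1 for Reg1 and 90.5 for Reg3a. The biological coefficient of variation fitted by edgeR, which sets counting noise apart, was 0.846 for Reg3b, 0.793 for Duox2, 0.768 for Reg3g, 0.706 for Duoxa2, 0.386 for Reg1 and 0.198 for Reg3a. Its median over all tested genes was 0.156. Between the highest and the lowest mouse, Duox2 differed 58.2-fold, Reg3b 44.1-fold, Duoxa2 37.9-fold, Reg3g 20.2-fold, Reg1 9.34-fold and Reg3a 2.56-fold.

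The spread itself did not differ detectably between the diets. A limma test on the absolute deviations from the diet median called 0 of the 6 members and 0 of 13405 genes (0%). Unadjusted p-values were under 0.05 for 0 members and 3.09% of all genes. In simulated data this test recovered 39% of 200 genes given an added log2 SD of 1.5 on galactose. It can therefore miss even large differences in spread. The SD was higher on galactose for Reg3a, Reg3b and Reg3g and lower for Reg1, Duox2 and Duoxa2, and it was higher on galactose for 56.1% of all genes. For Reg3b the SD of log2 CPM was 1.63 on galactose and 1.21 on glucose, and for Reg3g it was 1.39 and 1.02. For Duoxa2 it was 0.68 on galactose and 1.18 on glucose.

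**Figure D3:**
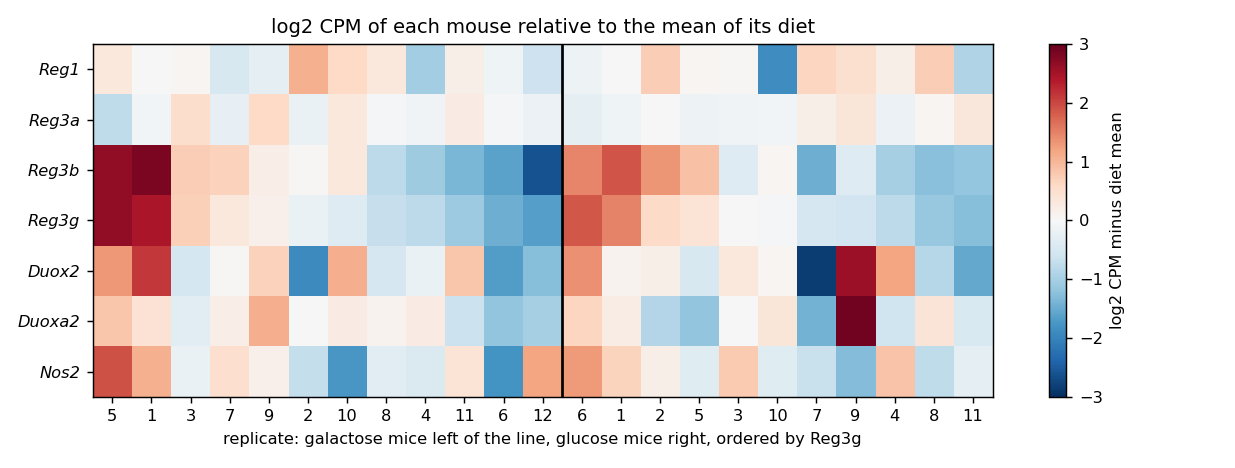
Level of 7 members in each mouse relative to the mean of its diet, in log2 CPM (colour scale, red above and blue below), with galactose mice left of the line and glucose mice right of it, each ordered by Reg3g. Reg3b follows the order of Reg3g in both diets, Reg1 and Reg3a do not, and glucose replicate 9 stands out by Duox2 and Duoxa2.

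Co-variation was tested on log2 CPM centred within each diet, over 23 mice, for all 15 pairs of the 6 tested members. For rho, log2 CPM was ranked over all 23 mice and the ranks were then centred within each diet. Permutation within diets called 3 of 15 pairs by Pearson's r and 2 by Spearman's rho, with 12 pairs above 0 and 3 below. Without galactose replicates 2 and 12 it called 2 pairs by r, and that of Reg3b and Reg3g was 0.959. All p-values given for pairs are two-sided and come from 100000 permutations.

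Reg3b and Reg3g moved together across mice in both diets. Pearson's r was 0.958 and Spearman's rho 0.951, each with a permutation p of 1e-05, the smallest that 100000 permutations can give (adjusted p = 0.00015 for both). Within the diets r was 0.974 on galactose and 0.924 on glucose, and without galactose replicates 1 and 5 it was 0.931. Each gene had the other as its closest match among 13404 tested genes. The ratio of Reg3b to Reg3g had a median of 2.005, a lowest value of 0.996 in galactose replicate 12 and a highest value of 3.66 in glucose replicate 2. On the log2 scale this ratio had an SD within diets of 0.45, against 1.45 for Reg3b itself. The mean log2 ratio was 0.96 ± 0.42 (SD, n = 12) on galactose and 1.14 ± 0.47 (SD, n = 11) on glucose.

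Reg3a had a negative correlation with Reg3g that did not pass the test. With Reg3g its r was -0.411 and its rho -0.322 (permutation p = 0.0758 and 0.145, adjusted p = 0.227 and 0.311), and r was -0.249 without galactose replicates 5 and 9. Within diets r was -0.314 on galactose and -0.666 on glucose. With the score of distal small intestine markers held it was -0.542 (adjusted permutation p = 0.0621), and with 1 library left out it ran from -0.505 to -0.18. The ratio of Reg3g to Reg3a ranged from 0.257 in glucose replicate 11 to 10.8 in galactose replicate 5. Reg1 and Reg3g had an r of 0.101 and a rho of 0.0575 (permutation p = 0.642 and 0.801, adjusted p = 0.876 and 0.977), and r was 0.158 without galactose replicate 2 and glucose replicate 10.

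Duox2 and Duoxa2, the oxidase and its maturation factor, varied together. Their r was 0.673 and their rho 0.655 (permutation p = 0.00105 and 0.00135, adjusted p = 0.00787 and 0.0101). Within diets r was 0.618 on galactose and 0.720 on glucose. Without glucose replicates 7 and 9, the lowest and the highest mouse, r was 0.483 and the pair did not pass (adjusted permutation p = 0.0918). Leaving out both extremes also narrows the range, which tends to lower r. With 1 mouse left out at a time, the lowest r was 0.575. Low counts limit this pair, since Duoxa2 had 316 counts over all libraries.

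Links between the lectins and the oxidase were weaker and depended on single mice. Reg3b and Duox2 had an r of 0.528 and a rho of 0.522 (permutation p = 0.00938 and 0.0135, adjusted p = 0.0469 and 0.0674). Without galactose replicates 1 and 5 that r was 0.366, and it was 0.670 on galactose and 0.379 on glucose. Reg3g and Duox2 had an r of 0.491 and a rho of 0.429 (permutation p = 0.0175 and 0.0474, adjusted p = 0.0655 and 0.142). Without galactose replicates 1 and 5 that r was 0.303, and without glucose replicate 9 it was 0.6003 with an adjusted permutation p of 0.0204. Galactose replicates 1 and 5 were thus high for Reg3b, Reg3g and Duox2, while glucose replicate 9 was high for Duox2 and not for Reg3b or Reg3g. Nos2 was set against 3 members as a separate family. With Reg3g its r was 0.568 and its rho 0.462 (permutation p = 0.00824 and 0.0326, adjusted p = 0.0247 and 0.0541), and r was 0.338 without galactose replicates 1 and 5. With Reg3b it had an r of 0.414 and a rho of 0.420 (permutation p = 0.0668 and 0.0541, adjusted p = 0.100 and 0.0541), and r was 0.136 without galactose replicates 1 and 5. With Duox2 it had an r of 0.337 and a rho of 0.449 (permutation p = 0.113 and 0.0365, adjusted p = 0.113 and 0.0541). Here r was higher, at 0.523, without glucose replicates 7 and 9.

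**Figure D4:**
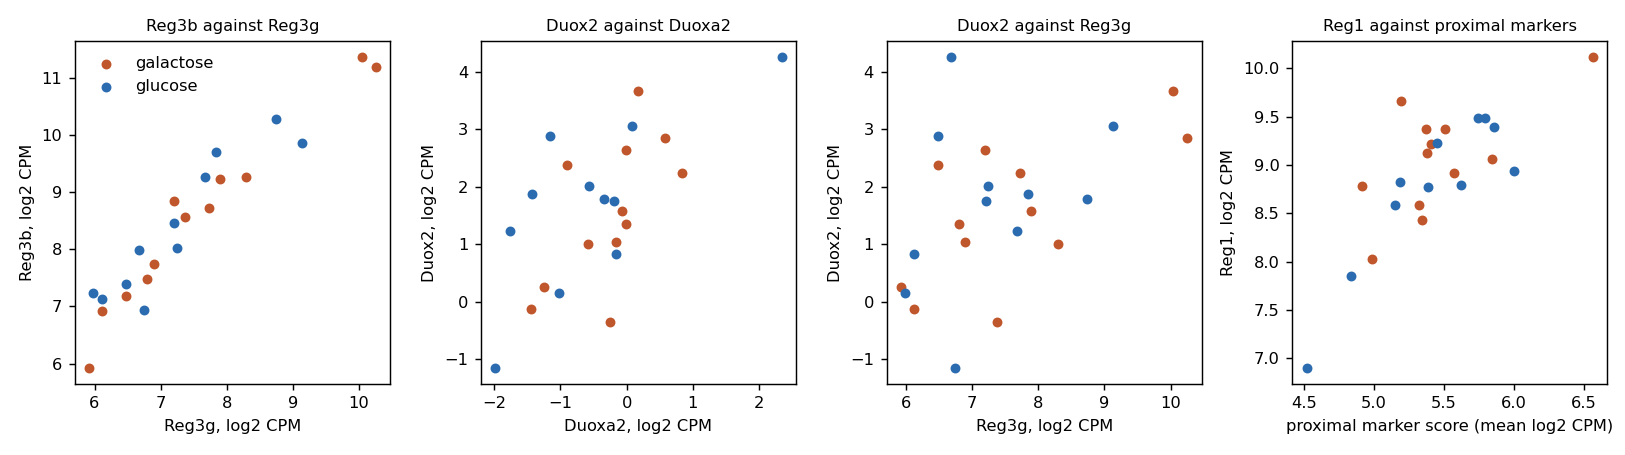
Log2 CPM of pairs of genes in the 23 mice, 1 point a mouse, orange for galactose and blue for glucose; the last panel sets Reg1 against the mean log2 CPM of 5 proximal small intestine markers. Reg3b and Reg3g lie on a line in both diets (r = 0.958), Duox2 and Duoxa2 scatter more (r = 0.673), and Duox2 against Reg3g holds 1 glucose mouse with high Duox2 and low Reg3g.

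Outside the members, the genes whose pattern over 23 mice was most like each member were taken by rank among tested genes, so no p is given for them. For Reg3b these were Ptk6, an epithelial tyrosine kinase (r = 0.822), Tifa, an adaptor in the sensing of bacterial sugars (0.811), and Osbpl7, a lipid binding protein (0.770). For Reg3g they were Tifa (0.772), the homeobox factor Barx2 (0.766) and Ptk6 (0.759). Without galactose replicates 1 and 5 the values for Reg3g were 0.657, 0.634 and 0.676. Duox2 was most like Gpx2, a glutathione peroxidase of gut epithelium (0.756), and the gasdermins Gsdmc4 (0.751) and Gsdmc2 (0.729). Reg1 was most like the sulfate transporter Slc13a1 (0.901), Papss2, which makes the donor for sulfation (0.882), and the proton channel Otop3 (0.840). Without galactose replicate 2 and glucose replicate 10 these were 0.814, 0.751 and 0.675. Reg3a was most like Dalrd3 (0.778), the acyl-CoA thioesterase Acot2 (0.777) and Emc9, a subunit of a membrane protein insertion complex (0.760). These points share libraries, and hence composition and depth.

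The 6 tested members were also set against scores of 18 gene lists and the slope of each library on transcript length, 114 relations in all. A score is the mean log2 CPM of the listed genes in a library, including listed genes with too few counts for the test. Scores over tested genes alone are given beside them, as an alternative added after the data had been seen. By Pearson's r 1 relation passed after adjustment, that of Reg1 with markers of proximal small intestine (r = 0.782, permutation p = 6e-05, adjusted p = 0.00684). Spearman's rho was 0.692 (permutation p = 0.00066), which did not pass after adjustment (adjusted p = 0.0752), and r was 0.613 without galactose replicate 2 and glucose replicate 10. Those mice were the highest and the lowest for both measures. Within that list Slc40a1, the iron exporter ferroportin, had an r of 0.819 with Reg1 and had rank 8 among all tested genes, and Pdx1 had an r of 0.784. The other tested genes of the list ran lower, with 0.483 for Cybrd1, 0.292 for Gata4 and 0.0197 for Fabp1. The proximal score was 5.45 ± 0.43 (SD, n = 12) on galactose and 5.41 ± 0.46 (SD, n = 11) on glucose, so its means lay within the spread. With that score held in the fit, the Reg1 difference between diets was 0.28 ± 0.16 (SE, adjusted p = 0.415 by edgeR). Acinar markers had an r of 0.379 with Reg1 (permutation p = 0.0353, adjusted p = 0.346) and 0.177 without galactose replicates 1 and 2. Over the 3 tested acinar genes alone r was 0.291 (permutation p = 0.138, adjusted p = 0.591), and it was -0.214 without galactose replicate 2 and glucose replicate 6. Reg3a with macrophage markers had the next smallest p by Pearson's r and did not pass (r = -0.620, permutation p = 0.00268, adjusted p = 0.153).

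Reg3g was not called with any list. Its highest r was 0.599 with other induced defence genes (rho 0.350, permutation p = 0.00754 and 0.112, adjusted p = 0.235 and 0.560). Without galactose replicates 1 and 5 that r was 0.109, and over the 16 tested genes of the list alone it was 0.506 (adjusted permutation p = 0.426). With the interleukin 22 pathway the sign of r depended on which genes entered the score. Over the 8 tested genes r was 0.348 and rho 0.443 (permutation p = 0.113 and 0.0411, adjusted p = 0.591 and 0.517), and r was 0.305 without galactose replicate 7 and glucose replicate 8. All 8 had an r above 0 with Reg3g, highest for Stat3 (0.397) and Socs3 (0.381). Over all 14 listed genes, 6 of them with too few counts for the test, r was -0.151 and rho -0.137 (permutation p = 0.493 and 0.534, adjusted p = 0.840 and 0.859). Markers of Paneth cells, which make Reg3 lectins beside enterocytes, gave an r of 0.0323 and a rho of -0.00407 (permutation p = 0.882 and 0.985, adjusted p = 0.945 and 0.985).

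Genes that act before the members showed no called difference between diets, as no gene of any list was called (0%). Of the 14 genes of the interleukin 22 pathway 8 were tested, with 4 differences above 0, 4 below and a median of -0.01. The receptor Il22ra1 had 67.2 ± 21.2 CPM (SD, n = 12) on galactose and 80.3 ± 25.8 CPM (SD, n = 11) on glucose, a log2 difference of -0.26 ± 0.17 (SE, adjusted p = 0.490 by edgeR). Stat3 had means of 171 and 174 CPM (log2 difference -0.03 ± 0.07 SE), and its feedback inhibitor Socs3 had 39.0 and 37.6 CPM (0.05 ± 0.23 SE). Il22 itself had 2 counts, in 1 galactose library, and Il17a had 0 counts in all libraries, so the cytokines could not be followed at this depth. Il22ra2, the soluble decoy receptor, had 212 counts over 22 libraries and was not tested. Il22 and Il17a are given with their values known.

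Among sensors of microbes, 9 of 18 tested genes lay above 0 and 9 below, with a median of 0.004. The adaptor Ticam1 had the smallest p of the 4 most abundant, with 112 ± 11.6 and 122 ± 13.5 CPM and a log2 difference of -0.12 ± 0.07 (SE, adjusted p = 0.385 by edgeR). Of 16 tested genes for other induced defence, 10 lay above 0 and 6 below, with a median of 0.12. At unadjusted p under 0.05 there were 3 higher and 1 lower, against 14.4% of all tested genes. Those higher included Il18, an epithelial cytokine, with means of 118 and 94.3 CPM (log2 difference 0.32 ± 0.12 SE, adjusted p = 0.223), and Zbp1, a sensor of nucleic acids, with 114 ± 48.3 and 74.5 ± 38.8 CPM (0.61 ± 0.26 SE, adjusted p = 0.288 by edgeR). Pigr, which carries IgA across the epithelium, had 3949 ± 900.0 and 3795 ± 501 CPM (0.06 ± 0.10 SE). Dmbt1, a mucosal scavenger protein, had 470 ± 127 and 501 ± 189 CPM (-0.09 ± 0.18 SE).

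Of the 12 relatives of the members 4 were tested, 3 above 0 and 1 below, with a median of 0.04. Reg4, a lectin of secretory cells, had 121 ± 20.4 CPM (SD, n = 12) on galactose and 120 ± 21.8 CPM (SD, n = 11) on glucose, a log2 difference of 0.01 ± 0.10 (SE, adjusted p = 0.963 by edgeR). Reg3d had 1.48 ± 0.449 and 1.58 ± 0.481 CPM, and Nos3, the endothelial nitric oxide synthase, had 0.982 ± 0.440 and 0.943 ± 0.457 CPM. Saa3 had 25 counts over 12 libraries and Nos1 108 counts over 23 libraries, and neither was tested. Retnlg, a relative of Retnlb, had a log2 difference of 0.15 ± 0.22 (SE).

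Markers of the cells that make or induce the members were described in the same way. All 7 Paneth cell genes had values below 0 with a median of -0.25 and none at an unadjusted p under 0.05, for example Lyz1 with 413 ± 181 and 503 ± 239 CPM (-0.28 ± 0.26 SE). The goblet cell markers lay below 0 for 5 of 7 genes, with a median of -0.10 and 1 at an unadjusted p under 0.05, against 14.4% of all tested genes. Fcgbp, a mucus protein and the most abundant of them, had 4414 ± 673 and 5171 ± 883 CPM (-0.23 ± 0.10 SE, adjusted p = 0.273 by edgeR). Of the neutrophil markers S100a8 and Elane were at 0 counts in all libraries, and the summed level of all 7 ran from 1.05 to 2.44 CPM on galactose and from 1.28 to 2.59 CPM on glucose. Macrophage markers summed to 73.4 to 130 CPM on galactose and 69.0 to 124 CPM on glucose. Of these 6 genes 4 lay below 0 and 2 above, with a median of -0.12. All 5 tested tuft cell genes lay below 0, also with a median of -0.12. Each of these 2 lists had 1 gene at an unadjusted p under 0.05 by edgeR, against 14.4% of all tested genes. Enterocyte markers lay above 0 for 3 of 7 genes with a median of -0.04. Of 7 markers of lymphocytes that make interleukin 22, 2 were tested. These had 2 differences above 0, with a median of 0.20 and none at an unadjusted p under 0.05 by edgeR. Inducers of type 2 responses had 2 of 5 tested genes above 0 with a median of -0.02, and genes of the interferon gamma pathway had 5 of 7 above 0 with a median of 0.10.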

How the data were processed

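RNA-seq counts of 23 libraries were used, 12 from galactose and 11 from glucose mice. The authors deposited raw read counts per gene, made with STAR and HTSeq on GRCm39 per the submitters' processing notes. Tool versions, annotation release and strand setting were not given in the sources used here. In each table, 5 rows that name no gene (13.5% of reads) were left out. Symbols were matched for 52083 of 55416 rows (94.0%).

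The main test between diets was that of edgeR 4.0.16 under R 4.3.3 (filterByExpr, TMM, quasi-likelihood F test, diet as the only term, Benjamini-Hochberg over 13405 genes, threshold 0.05), fitted to all libraries. SE is the log2 difference divided by the root of F. Spread was tested with limma 3.58.1 on absolute deviations of log2 CPM (prior count 2) from the diet median. Correlations used 100000 permutations within diet, adjusted over 15 pairs, over 114 relations with lists and over 3 pairs for Nos2. Pearson's r was taken on log2 CPM centred within diet. For rho, log2 CPM was ranked over all mice and the ranks were then centred within diet. Permutations for Nos2, outside the filter, were added after its values had been seen. The tests of level, spread and correlation were checked on simulated data, where 7.1% of the calls for level were false. For spread, 39% of the changed genes were recovered. Lengths come from GENCODE M21 on GRCm38, and promoters from RefSeq GRCm38.p6. Levels per kilobase used the longest coding transcript, and the slope on transcript length used the longest transcript of any type.

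The members and lists were chosen with earlier results of these data known. Genes named beside the members are the 4 most abundant tested genes of a list, relatives and interleukin 22 pathway genes with counts in at least 12 libraries, and the 3 genes most like each member of at least 1 CPM. Not all genes of that rule are written out. The most alike genes were ranked without members, predicted genes, genes named only by a clone or identifier, and immunoglobulin or T cell receptor segments. Fabp6, Amy2a5, Il22, Il17a, S100a8, Elane, Duox1, the Y-linked genes and Xist were named after their values had been seen. Alternatives were other scalings, filters and tests (DESeq2 1.42.0, limma-voom), library scores as covariates and each library left out. The proximal score as a covariate, list scores over tested genes alone and leaving out galactose replicates 2 and 12 together were added after the data had been seen.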

Additional observations from a re-analysis of the deposited data

How the results depend on the processing

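No member was called between diets, in level or in spread, in any of the 381 alternative values that have an adjusted p (DESeq2 gave none for Duox2 and Duoxa2), with a smallest adjusted p of 0.305 for level and 0.883 for spread. The number of genes called, 0 by edgeR, was 132 with DESeq2 and 167 with limma-voom and sample quality weights, and 0 to 219 with 1 library left out, where 219 came without galactose replicate 7 and all other removals gave 0. The number of genes called for spread was 0 in every alternative run. The Duoxa2 difference turned to 0.38 with limma-voom, 0.41 with quality weights, 0.30 with limma-trend, and ranged from -0.31 to 0.67 with 1 library left out, the latter without glucose replicate 9. The Reg3b difference turned to -0.13 with quality weights and ranged from 0.12 to 0.82 with 1 library left out. The Reg3a difference turned to -0.056 with the length slope as covariate, to -0.021 without galactose replicate 3 and to -0.026 without replicate 9, and reached 0.091 without replicate 5. The Duox2 difference ranged from -0.64 without galactose replicate 1 to 0.17 without glucose replicate 9. The log2 ratio of SDs ranged for Duox2 from -0.40 to 0.087, the latter without glucose replicate 7, and for Reg1 from -0.71 to 0.17, the latter without glucose replicate 10. The number of pairs of members called, 3 of 15, ranged from 2 to 6 with 1 library left out, with 6 without glucose replicate 9. The correlation of Reg3b and Reg3g stayed between 0.931 and 0.966 in all 29 alternatives. With list scores over tested genes alone, 1 relation with lists was called as before, and r of Reg3g with the interleukin 22 pathway turned from -0.151 to 0.348. Apart from removals, which change the samples, the cause of these changes was not tested. No paired analysis was possible because the replicate numbers were given in deposit order and link no mice across diets. Depth limits Saa1, Saa2, Retnlb, Il22 and Il17a, which had at most 16 counts each.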
